A study of Mus musculus with 115 samples.

Results

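The mammary fat pads of 115 untreated backcross mice fell into a high and a low level of Lamtor5, with 53 Lamtor5-high mice (46.1%, exact binomial 95% interval 36.8 to 55.6%) and 62 Lamtor5-low mice. The level of a mouse was set by the brighter of the 2 probe sets that the platform annotation assigned to Lamtor5 alone, whose 115 values were split by k-means with k = 2, started at the lowest and the highest value. Nothing else about a mouse entered the split. All mice were females aged 8 weeks and, per the labels, were bred by crossing FVB/N, a laboratory strain, with the Mus spretus strain Spret/Ei and mating the hybrids back to FVB/N. The high and the low mice therefore shared strain cross, tissue, sex, age and lack of treatment, and no label gives a genotype by which they could differ. The labels put each animal in 1 of 3 lymph clusters, whose making they do not describe, and on 1 of 2 array plates. RNA was taken from whole tissue and hybridised to 1 Affymetrix array per mouse. The labels name each mouse as a separate animal.

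Lamtor5, once named Hbxip, encodes a small subunit of Ragulator, the scaffold that tethers Rag GTPases to the lysosome surface. When amino acids are plentiful, the Rag GTPases on Ragulator recruit mTORC1, the kinase complex that drives protein and lipid synthesis and restrains autophagy, and mTORC1 signalling is needed for fat cells to form and store lipid. In a backcross of this kind a mouse is at any autosomal locus either homozygous for FVB/N or heterozygous for FVB/N and Mus spretus. Genes on the same chromosome are inherited together more often the closer they lie, so a gene whose level follows its own allele divides the mice much as its neighbours' alleles do. Whether the Lamtor5 levels follow an allele was not tested, and which level would go with which allele is not known.

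The values that set the levels were as follows, on the log2 scale of the deposited values. Lamtor5 had a lowest value of 6.71, a median of 7.61 and a highest value of 8.50 in the high mice, and 5.28, 5.66 and 6.60 in the low mice. The levels do not overlap because the rule placed a boundary between them. The last mice inside the high level had 6.712, 6.738 and 6.740, and the nearest outside it had 6.600, 6.581 and 6.394. The means were 7.61 ± 0.439 (SD, n = 53) in high mice and 5.74 ± 0.293 (SD, n = 62) in low mice, a difference of 1.87 or 3.66-fold, and the means lay 5.10 within-level SDs apart. The mean of the high mice stood at the 66.8th percentile of probe set means on the array and that of the low mice at the 41.7th. Only 5 mice, 3 high and 2 low, lay in the middle 20% of the distance between the level means.

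The levels were present in each plate and lymph cluster. Plate 2 held 9 high mice, with 6.93, 7.83 and 8.50 as lowest, median and highest value, and 13 low mice, with 5.36, 5.67 and 6.04. Plate 1 held 44 high and 49 low mice. High and low mice numbered 22 and 22 in lymph cluster 1, 27 and 34 in cluster 2, and 4 and 6 in cluster 3. The median of all probe sets per array ran from 6.16 to 6.42 in high mice and from 6.17 to 6.45 in low mice. These array medians were slightly lower in high mice, with means of 6.307 ± 0.051 (SD, n = 53) against 6.332 ± 0.048 (SD, n = 62). Small falls in high mice are therefore also given below with the arrays centred, where the centring ended a call. An equal-variance mixture of 2 normal components gave the same 53 and 62 mice, and a boundary at the widest gap between neighbouring values moved 2 mice, to 55 high and 60 low. Both rules used the same values as k-means. They show how far the boundary depended on the rule and are not separate evidence of 2 levels.

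The other Lamtor5 probe set did not divide the mice in this way. It had a lowest value of 5.73, a median of 6.33 and a highest value of 7.02 in high mice, and 5.94, 6.31 and 7.07 in low mice, so the levels overlapped along nearly their whole range. Its means were 6.34 ± 0.234 (SD, n = 53) in high mice and 6.34 ± 0.219 (SD, n = 62) in low mice, a difference of 0.0027. Split by k-means on its own, it placed 58 of the 115 mice (50.4%) at the level given by the first probe set. The levels described here are therefore levels of 1 probe set annotated to Lamtor5, and whether that probe set reads Lamtor5 mRNA alone was not tested. An allele that changes the amount of an RNA and an allele whose sequence changes how well the RNA binds the probes cannot be told apart from these values, for Lamtor5 or for any gene below.

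**Figure D1:**
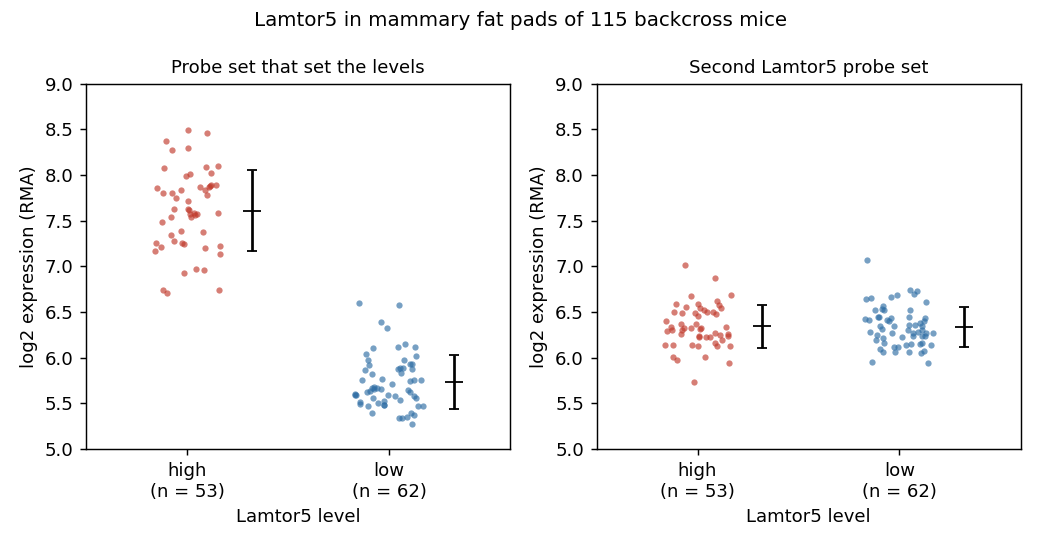
log2 expression of the 2 Lamtor5 probe sets in 53 Lamtor5-high mice (red) and 62 Lamtor5-low mice (blue), with 1 point per mouse and the mean ± SD beside the points. The probe set that set the levels lies between 6.71 and 8.50 in high mice and between 5.28 and 6.60 in low mice, while the second probe set covers about the same range in both.

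Promoter sequences, in windows of 300 bases that span the gene start, are shown for Lamtor5, whose probe set set the levels, and for Gstm4 and Plppr4, the genes whose own levels followed it most closely (values are given further on). They come from RefSeq, build GRCm38.p6, and read 5′ to 3′ on the strand of the gene, with matches to the CCAAT box, CCAAT on either strand, in capitals.
Lamtor5 (chr3:107278608-107278907, plus strand): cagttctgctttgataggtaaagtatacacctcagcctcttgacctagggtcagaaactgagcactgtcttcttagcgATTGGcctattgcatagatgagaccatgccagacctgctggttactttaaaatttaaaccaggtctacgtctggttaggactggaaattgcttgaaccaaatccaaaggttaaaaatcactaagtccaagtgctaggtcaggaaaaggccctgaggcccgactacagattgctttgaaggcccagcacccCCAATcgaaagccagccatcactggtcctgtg
Gstm4 (chr3:108044810-108045109, minus strand, the first of 2 windows listed): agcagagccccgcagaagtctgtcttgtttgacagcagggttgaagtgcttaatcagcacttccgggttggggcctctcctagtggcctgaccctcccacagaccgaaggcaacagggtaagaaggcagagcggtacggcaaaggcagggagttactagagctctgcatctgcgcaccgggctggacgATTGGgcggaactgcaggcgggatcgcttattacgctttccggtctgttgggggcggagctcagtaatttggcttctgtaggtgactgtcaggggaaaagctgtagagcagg
Plppr4 (chr3:117360827-117361126, minus strand): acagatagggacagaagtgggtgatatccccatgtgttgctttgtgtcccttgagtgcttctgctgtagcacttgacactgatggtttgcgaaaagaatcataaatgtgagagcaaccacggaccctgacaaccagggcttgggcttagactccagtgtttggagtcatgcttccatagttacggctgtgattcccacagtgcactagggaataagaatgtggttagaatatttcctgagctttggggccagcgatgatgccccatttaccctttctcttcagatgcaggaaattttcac
The Lamtor5 window held 2 such matches, the Gstm4 window 1 and the Plppr4 window 0, and 37.4% of 32851 mouse promoter windows of this length held at least 1. None of the 3 windows held TATAAA (the TATA box, in 13.6% of windows) or CACGTG (an E-box, in 7.15%). These are the letters of the reference strain, which is neither FVB/N nor Mus spretus.

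To see which genes differed between Lamtor5-high and Lamtor5-low mice, all other probe sets were compared with limma, with array plate and lymph cluster as covariates and Benjamini-Hochberg adjustment over 28202 probe sets. An adjusted p under 0.05 is named a call. There were 125 calls (0.443% of probe sets), 65 higher in the high mice (0.23%) and 60 lower (0.213%). Of the probe sets whose gene could be placed, 88 of the 997 on chromosome 3, where Lamtor5 lies, were called (8.83%), against 14 of the 20109 on other chromosomes (0.0696%). Chromosome 3 thus held 86.3% of the placed calls and 4.72% of the placed probe sets. On no other chromosome did the share called pass 0.299%. The remaining 23 calls were unplaced (0.324% of 7096), 16 with no gene symbol and 7 with several, of which 9 were higher in high mice (0.127%) and 14 lower (0.197%). None of the 28202 probe sets tested, which leave out those of Lamtor5, separated the levels without overlap, and 3 calls, Plppr4, Mgst2 and Ugt8a, were at least 2-fold.

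On chromosome 3 the calls went both ways, with 55 probe sets higher in high mice (5.52%) and 33 lower (3.31%), in 84 of 885 measured genes. The share called declined with distance from Lamtor5 in the reference genome. It was 21.6% within 5 Mb (24 of 111 probe sets), 10.4% from 5 to 20 Mb (39 of 374), 6.44% from 20 to 50 Mb (19 of 295) and 2.76% beyond 50 Mb (6 of 217). The median size of the log2 difference, whatever its sign, was 0.079 within 5 Mb, 0.061, 0.067 and 0.044 in the farther windows, and 0.040 on other chromosomes. The farthest calls were Zfp704, a zinc finger gene 97.9 Mb toward the chromosome start, at −0.22 (SE 0.051), and Lrriq3, 47.8 Mb toward its end, at 0.29 (SE 0.064). Both genes were chosen after their values were seen.

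**Figure D2:**
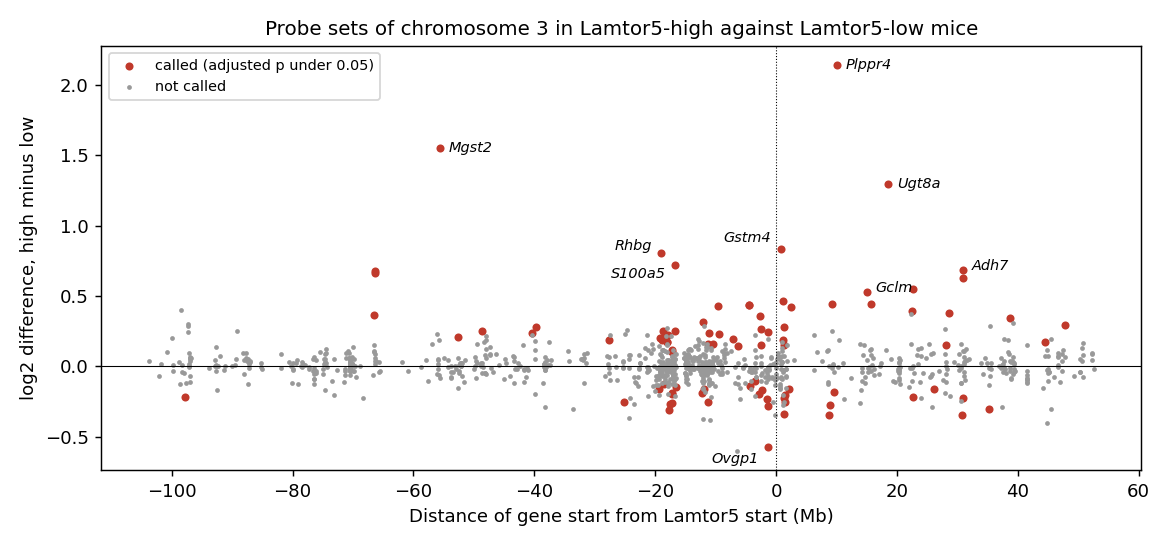
log2 difference between Lamtor5-high and Lamtor5-low mice (high minus low) of the 997 probe sets placed on chromosome 3, against the distance of the gene start from that of Lamtor5 in Mb. Red points are the 88 calls and grey points the rest. The calls are densest near Lamtor5 and include rises of 2.14 for Plppr4 at 10.04 Mb and of 1.55 for Mgst2 at 55.6 Mb on the other side.

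Plppr4 showed the largest rise. It encodes a membrane protein known from the synapses of neurons, where it takes part in lysophospholipid signalling. Its lowest, median and highest log2 values were 5.95, 8.78 and 9.98 in high mice, against 5.05, 6.41 and 9.07 in low mice. The ranges overlapped, with 16 high mice above every low mouse and 17 low mice below every high mouse. The difference was 2.14 (SE 0.15, 4.40-fold, limma adjusted p = 3.208e-22), and it was 2.03 within plate 1 and 2.50 within plate 2.

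Mgst2 came next among the rises. It encodes a microsomal glutathione S-transferase, which also makes leukotriene C4. Mgst2 ran from 5.19 through a median of 8.41 to 9.47 in high mice, and from 4.21 through 5.93 to 8.73 in low mice. Both levels held mice around 8.46 and mice around 5.75, the means of Mgst2's own upper and lower level, in different proportions. The difference was 1.55 (SE 0.23, 2.92-fold, limma adjusted p = 5.358e-07). Ugt8a, the enzyme that makes the myelin lipid galactosylceramide, had 5.40, 7.34 and 8.21 as lowest, median and highest value in high mice and 4.79, 5.96 and 8.01 in low mice. It differed by 1.30 (SE 0.12, 2.46-fold, limma adjusted p = 2.476e-15), with 4 high mice above all low mice and 9 low mice below all high mice.

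Gstm4, which lies 0.752 Mb from Lamtor5, had the smallest adjusted p of all probe sets named here. It encodes a mu-class glutathione S-transferase. Its log2 values ran from 9.09 through a median of 9.61 to 10.22 in high mice and from 7.67 through 8.80 to 9.44 in low mice. The levels met only at their edges, with 45 of 53 high mice above every low mouse and 51 of 62 low mice below every high mouse. The difference was 0.83 (SE 0.057, 1.78-fold, limma adjusted p = 1.788e-23).

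The other 6 of the 10 largest rises, a ranking that leaves out predicted and RIKEN genes, were smaller than 2-fold, and each overlapped between the levels. Left out in this way was 1700034I23Rik, 66.4 Mb toward the chromosome start, whose 2 probe sets were called at 0.66 (SE 0.14) and 0.68 (SE 0.15). Gclm, the modifier subunit of the enzyme that starts glutathione synthesis, had 8.71, 9.60 and 10.14 as lowest, median and highest value in high mice and 8.57, 9.01 and 9.57 in low mice, with 31 high mice above every low mouse. Its difference was 0.53 (SE 0.051, limma adjusted p = 4.944e-14). The ammonium transporter gene Rhbg differed by 0.81 (SE 0.11) and the calcium-binding protein gene S100a5 by 0.72 (SE 0.087). Adh7 and Adh1, alcohol dehydrogenases that act on ethanol and retinol, differed by 0.69 (SE 0.12) and 0.63 (SE 0.096). Pla2g12a, a secreted phospholipase A2, differed by 0.55 (SE 0.076). All 6 rose at limma adjusted p-values of 4.093e-05 or below.

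Ovgp1 fell most. It encodes oviductal glycoprotein, a chitinase-like protein without known chitinase activity, and lies 1.31 Mb from Lamtor5. Its lowest, median and highest values were 5.46, 5.84 and 6.53 in high mice, against 5.94, 6.42 and 7.14 in low mice. Of the high mice 34 of 53 were below every low mouse, and 24 of 62 low mice were above every high mouse. The difference was −0.58 (SE 0.053, limma adjusted p = 1.635e-15), with −0.51 within plate 1 and −0.78 within plate 2.

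The other 9 of the 10 largest falls lay between −0.35 and −0.25. Vcam1, the adhesion molecule that leukocytes bind on activated endothelium, had 7.48, 8.00 and 8.82 as lowest, median and highest value in high mice and 7.40, 8.48 and 9.27 in low mice. Its difference was −0.35 (SE 0.069, limma adjusted p = 0.000909), with −0.41 within plate 1 and −0.080 within plate 2. Mttp, which loads lipid onto lipoproteins, had 4.59, 5.17 and 5.99 in high mice and 4.78, 5.66 and 6.10 in low mice, and differed by −0.35 (SE 0.062). The ranges of both genes overlapped almost wholly. Kcnn3, a calcium-activated potassium channel, differed by −0.31 (SE 0.071), and Chrnb2, a subunit of the nicotinic acetylcholine receptor, by −0.26 (SE 0.049). Gbp7, an interferon-induced GTPase, differed by −0.30 (SE 0.065) and Gucy1a1, a subunit of the nitric oxide receptor guanylate cyclase, by −0.25 (SE 0.050). Chil5, a chitinase-like gene, differed by −0.28 (SE 0.054), the phosphatase gene Cdc14a by −0.27 (SE 0.067) and Aknad1 by −0.25 (SE 0.039). The limma adjusted p of these 7 genes lay between 3.188e-06 for Aknad1 and 0.0241 for Cdc14a. Cdc14a was the weakest, and its call was lost with array weights, with ranks or with cell content as covariates.

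**Figure D3:**
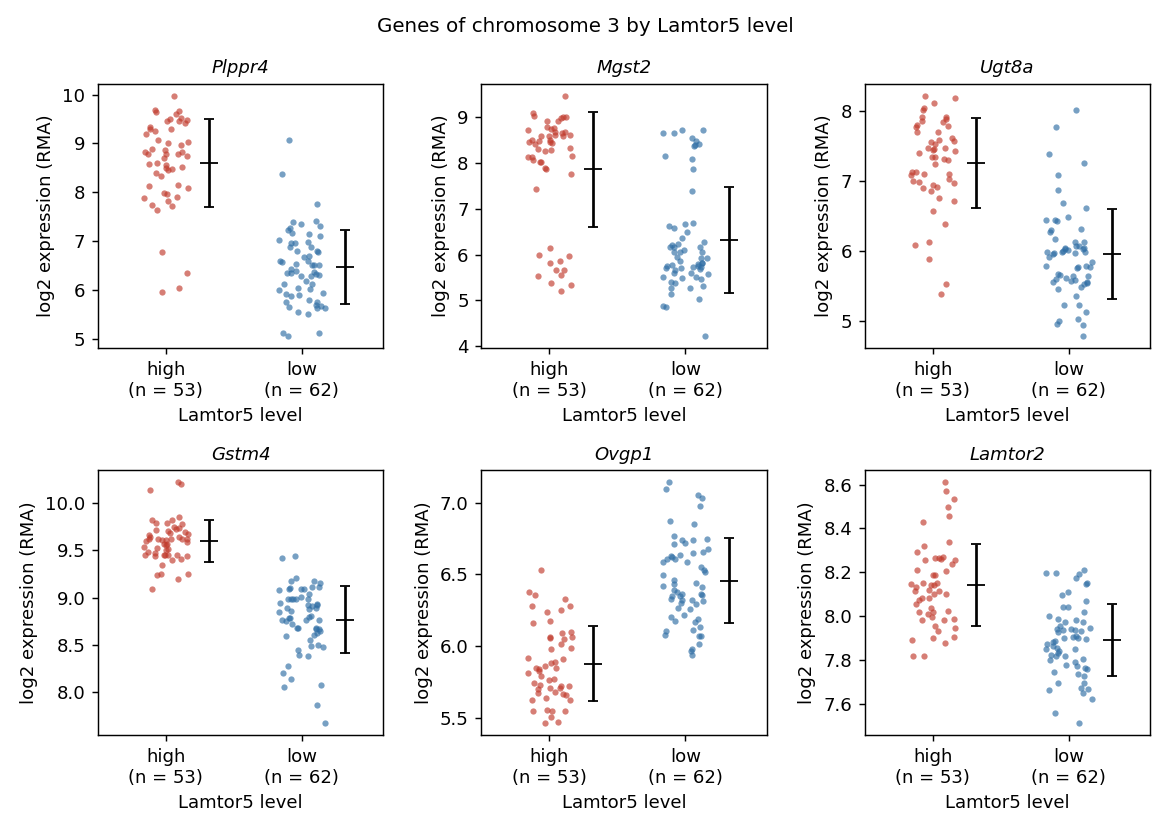
log2 expression of 6 genes of chromosome 3 in 53 Lamtor5-high mice (red) and 62 Lamtor5-low mice (blue), with 1 point per mouse and the mean ± SD beside the points. Plppr4, Mgst2, Ugt8a, Gstm4 and Lamtor2 are higher and Ovgp1 is lower in high mice, Gstm4 overlaps only at the edges, and Mgst2 shows a cloud around 8.46 and a cloud around 5.75 at both levels.

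None of the 10 genes nearest to Lamtor5, 5 on each side and all within 0.275 Mb, was called, beside 21.6% of probe sets within 5 Mb and 8.83% along the chromosome. Toward the chromosome start these were Prok1, a secreted prokineticin, Cym, which encodes chymosin, the potassium channel genes Kcna10 and Kcna2, and AI504432. Toward the end they were Slc16a4, of a family of monocarboxylate transporters, the RNA-binding protein gene Rbm15, the potassium channel gene Kcnc4, the amino acid transporter gene Slc6a17 and Ubl4b. Most of the 10 were dim. Prok1, Cym, Kcna10, Slc16a4, Kcnc4, Slc6a17 and Ubl4b had mean log2 values between 4.45 and 5.64, below the lowest array median of 6.16. Whether these dim genes were expressed was not tested, which limits what their lack of a call can show. AI504432 had the widest difference of the 10. Its lowest, median and highest values were 5.04, 6.71 and 7.77 in high mice, against 6.05, 6.94 and 8.38 in low mice. It differed by −0.34 (SE 0.10, limma adjusted p = 0.139), and it was called, at −0.27, when principal components of other chromosomes were added as covariates. The other 9 lay between −0.094 for Kcna2 (SE 0.056) and 0.073 for Ubl4b (SE 0.034). Slc16a4, the closest measured gene at 0.012 Mb, had medians of 5.32 in high mice and 5.35 in low mice.

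Several chromosome 3 genes with calls belong to families whose members lie side by side, and the relatives were examined, a choice made after their values were seen. Related genes can share probe sequence, so a probe set of one member may read another, which was not tested. Of 6 mu-class glutathione S-transferases, all within 5 Mb of Lamtor5, Gstm4 alone was called. In that window 21.6% of probe sets were called, against 8.83% along the chromosome. Gstm1 had 9.13, 10.03 and 10.95 as lowest, median and highest value in high mice and 9.46, 10.22 and 10.73 in low mice, and differed by −0.16 (SE 0.060, limma adjusted p = 0.312). Gstm2 differed by −0.14 (SE 0.076) and Gstm3 by −0.16 (SE 0.050). These 3 lay on the opposite side of 0 from Gstm4, and Gstm1 and Gstm2 were called with cell content or principal components as covariates (Gstm1 at −0.22 and −0.19, Gstm2 at −0.23 and −0.20), Gstm3 with cell content (−0.17). Gstm7 and Gstm6 differed by 0.066 (SE 0.078) and 0.067 (SE 0.066).

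The counts of the further families also stand beside the 8.83% called along the chromosome. Of 7 alcohol dehydrogenase genes, Adh7 and Adh1 rose and 5 were not called, with differences between −0.066 and 0.11. Adh1 had medians of 11.03 in high mice and 10.33 in low mice, while Adh5, which acts on glutathione-bound formaldehyde, had 9.16 in high mice and 9.08 in low mice and differed by 0.11 (SE 0.038, limma adjusted p = 0.254). Of 14 S100 calcium-binding protein genes, S100a5 and S100a3 rose, S100a7a fell and 11 were not called. S100a3 differed by 0.25 (SE 0.061) and S100a7a by −0.15 (SE 0.031). Of 4 guanylate-binding protein genes only Gbp7 was called. Of 6 chitinase-like genes, all within 5 Mb of Lamtor5, where 21.6% of probe sets were called, Ovgp1 and Chil5 fell. The other 4 lay between −0.024 and 0.068. The 5 steroid dehydrogenase genes of the Hsd3b cluster had no call, with differences of 0.061 to 0.16.

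Taf13, a subunit of the basal transcription factor TFIID 1.29 Mb from Lamtor5, had 2 probe sets that were called in opposite directions. The brighter had 7.07, 7.72 and 8.18 as lowest, median and highest value in high mice and 6.92, 7.41 and 7.90 in low mice, a difference of 0.28 (SE 0.049, limma adjusted p = 8.283e-05). The dimmer had 6.01, 6.43 and 6.98 in high mice and 6.21, 6.77 and 7.14 in low mice, a difference of −0.34 (SE 0.043, limma adjusted p = 3.253e-09). Taf13 therefore has no single direction here. Further calls named after their values were seen were Rtca, an RNA cyclase (0.44, SE 0.045), Fmo5, a flavin-containing monooxygenase (0.43, SE 0.067), and Sars, the serine tRNA synthetase (0.19, SE 0.021).

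Ragulator is a complex of Lamtor1 to Lamtor5, and of the 4 other subunits Lamtor2 alone was called. Of the 4, Lamtor2 and Lamtor3 lie on chromosome 3, where 8.83% of probe sets were called, and Lamtor1 and Lamtor4 on others, where 0.0696% were. Lamtor2 lies 18.7 Mb from Lamtor5 toward the chromosome start. Its lowest, median and highest values were 7.82, 8.12 and 8.61 in high mice and 7.51, 7.89 and 8.21 in low mice, with 17 high mice above every low mouse and 19 low mice below every high mouse. Lamtor2 rose by 0.25 (SE 0.034, limma adjusted p = 4.397e-08), with 0.23 within plate 1 and 0.32 within plate 2. Lamtor3, at 30.6 Mb, had 9.92, 10.31 and 10.62 in high mice and 9.86, 10.29 and 10.68 in low mice. It differed by 0.0039 (SE 0.031, 95% interval −0.058 to 0.066), and the sign turned to −0.012 when quantile normalization was repeated. Lamtor4 differed by 0.065 (SE 0.044, 95% interval −0.023 to 0.15) and Lamtor1 by 0.055 (SE 0.056, 95% interval −0.056 to 0.17).

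No gene of the pathway that Ragulator serves was called, against 0.443% of all probe sets. Most of these genes lie on other chromosomes, where 0.0696% of probe sets were called. With shares this low, 0 calls in lists of this length does not set the pathway apart from other genes. Of 21 measured Rag GTPases and Rag regulators 0 were called, with a median difference of −0.013, beside −0.0012 over all probe sets. Those with the smallest p were Sesn3, a sestrin that restrains the pathway when amino acids run low, at −0.14 (SE 0.047, limma adjusted p = 0.191), and the Rag GTPase gene Rraga at 0.098 (SE 0.036). Of 10 genes of mTORC1 and its upstream controls 0 were called (median 0.0074). Tsc1, part of the complex that switches off Rheb, differed by −0.085 (SE 0.032), and Rheb, the GTPase that activates mTORC1, by 0.10 (SE 0.040). The level of Mtor itself differed by 0.056 (SE 0.042, 95% interval −0.028 to 0.14).

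Of 14 measured mTORC1 substrates and effectors 0 were called (median −0.042). Ulk1, the kinase that starts autophagy, had medians of 8.20 in high mice and 8.24 in low mice and differed by −0.10 (SE 0.034, limma adjusted p = 0.234). Eif4ebp1, which holds back translation until mTORC1 phosphorylates it, had medians of 10.14 and 9.95 in high and low mice and differed by 0.12 (SE 0.058). Of 6 subunits of BORC, a complex that positions lysosomes and binds Ragulator, 0 were called (median 0.028), with Bloc1s1 at 0.071 (SE 0.050) and Kxd1 at −0.038 (SE 0.034). Of 25 lysosomal enzyme, membrane protein and proton pump genes 0 were called (median 0.035). The largest difference among them was that of the pump subunit Atp6v1h, at 0.15 (SE 0.064, limma adjusted p = 0.406), and the pump subunit Atp6v1a differed by 0.083 (SE 0.046). Transcript levels do not report the activity of the kinase.

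**Figure D4:**
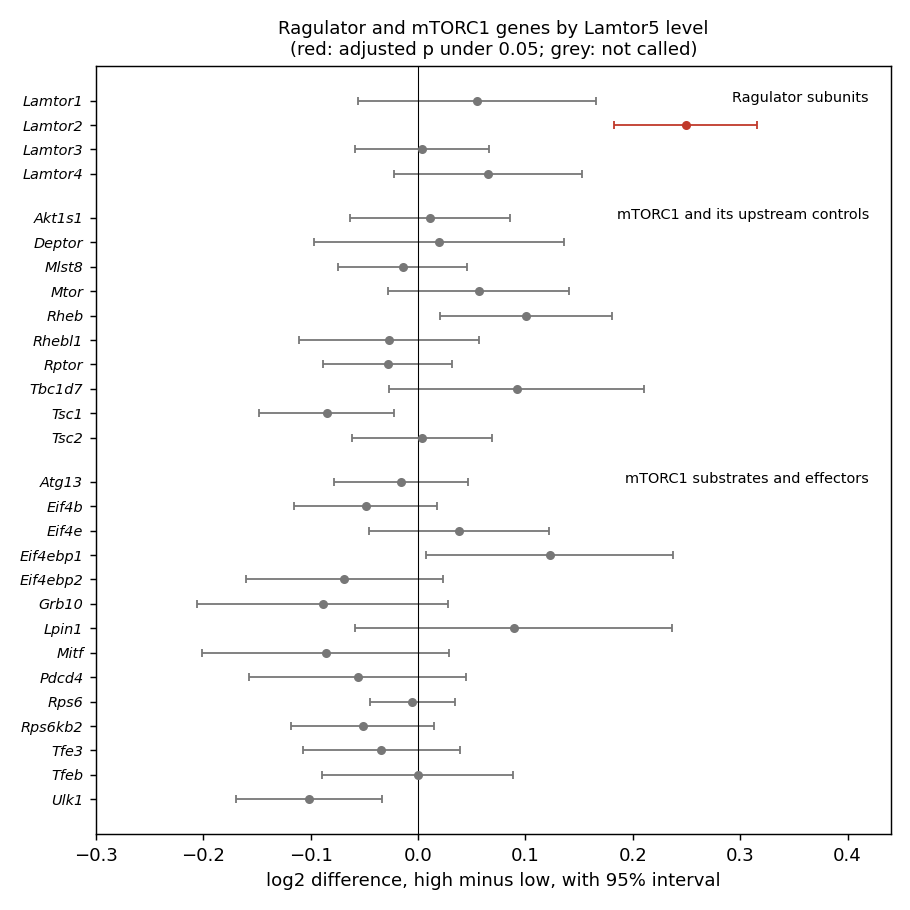
log2 difference between Lamtor5-high and Lamtor5-low mice (high minus low) with its 95% interval for 4 Ragulator subunits, 10 genes of mTORC1 and its upstream controls and 14 mTORC1 substrates and effectors. Lamtor2, in red, at 0.25, is the only call, and all other points lie between −0.10 and 0.12.

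On other chromosomes 14 probe sets of 14 genes were called, 1 higher in high mice (0.00497%) and 13 lower (0.0646%). The rise was that of the probe set for the miRNA gene Mir496a on chromosome 12. Its mature arms are shown because they identify the only rise among probe sets placed on other chromosomes. They come from RefSeq GRCm38.p6, with the seed, bases 2 to 8, in capitals. The probe set is named for the gene and does not tell the arms apart.
mmu-miR-496a-5p: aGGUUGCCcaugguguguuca
mmu-miR-496a-3p: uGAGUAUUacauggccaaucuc
Mir496a had 3.47, 3.69 and 4.32 as lowest, median and highest log2 value in high mice and 3.10, 3.53 and 3.71 in low mice, all below the array medians. Of the high mice 23 were above every low mouse, and 15 low mice were below every high mouse. The difference was 0.19 (SE 0.024, limma adjusted p = 7.473e-09), with 0.14 within plate 1 and 0.38 within plate 2. Mir341, a miRNA gene of the same chromosome, named after its values were seen, fell by 0.14 on the log2 scale (SE 0.033, limma adjusted p = 0.0220), and both belong to the imprinted Dlk1 to Dio3 cluster.

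The largest falls on other chromosomes were small, and 7 of the first 8 are given here. Tet1, which oxidises 5-methylcytosine in DNA, had 6.55, 7.39 and 8.23 as lowest, median and highest value in high mice and 6.93, 7.67 and 8.74 in low mice. It differed by −0.29 (SE 0.071, limma adjusted p = 0.0258), and its 2 further probe sets by −0.23 and −0.24 with limma adjusted p-values of 0.0650 and 0.0592. Its relative Tet2, which lies on chromosome 3 and was named after its values were seen, differed by −0.16 (SE 0.035, limma adjusted p = 0.00313). Airn, the non-coding RNA that silences the imprinted Igf2r gene, had 8.11, 9.03 and 9.59 in high mice and 8.40, 9.22 and 9.86 in low mice and differed by −0.26 (SE 0.064). Its further probe set differed by −0.20 (limma adjusted p = 0.148).

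The kinase gene Cdk15 differed by −0.25 (SE 0.050) and the Golgi kinase gene Gask1a by −0.23 (SE 0.050). Gltpd2, of the glycolipid transfer protein family, differed by −0.20 (SE 0.042), Magef1 by −0.16 (SE 0.042) and the collagen gene Col20a1 by −0.16 (SE 0.038). The limma adjusted p of these 7 falls lay between 0.00143 for Cdk15 and 0.0450 for Magef1. Of the 14 calls outside chromosome 3, 6 were still called with 5 principal components as covariates, against 83 of the 88 on chromosome 3. The components were computed from the probe sets of other chromosomes alone, so these counts do not compare the chromosomes on equal terms. Centring the arrays on their medians ended the calls of Airn, Magef1, Col20a1 and Mir341.

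The difference between high and low mice had the same sign on both plates for all 88 calls of chromosome 3 and all 14 of other chromosomes, which were chosen on both plates together. Within plate 1 alone 58 of the 88 and 1 of the 14 were called, and within plate 2 alone, with 22 mice, 6 of the 88 and 0 of the 14. A test of whether the difference itself changed between plates gave 0 calls by limma (0% of 28202), with 1944 probe sets at an unadjusted p under 0.05 (6.89%) and a smallest adjusted p of 0.0558. The same test between lymph clusters 2 and 1 gave 0 calls (0%), with 825 probe sets at an unadjusted p under 0.05 (2.93%). Repeating quantile normalization raised the count between plates to 3, and moderation with trend and robust settings raised it to 1.

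Gene by gene, the 88 calls of chromosome 3 were also split into 2 levels on their own, by the same k-means, and set against the Lamtor5 levels, as a description with no test. The orientation that matched better was taken, so the share cannot fall below 50.4%. These probe sets were chosen because they differed between the Lamtor5 levels, so shares above that floor follow in part from the choice. K-means gives 2 levels for any gene, whether or not its values form separate groups. The own levels lay 2.997 within-level SDs apart for Gstm4 and 2.74 for Lamtor2, against 3.95 for Plppr4 and 6.17 for Mgst2. The own levels of Gstm4 and of Plppr4 each matched the Lamtor5 level in 108 of 115 mice (93.9%), those of Ugt8a in 100 (87.0%), and those of Gclm and Rtca in 96 each (83.5%). Ovgp1, whose upper level went with low Lamtor5, and Sars matched in 94 (81.7%), and Lamtor2 in 87 (75.7%). Mgst2, the farthest of the large rises, matched in 90 (78.3%). Its upper level held 41 of the 53 high mice and 13 of the 62 low mice.

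Probe sets with clearly separate levels were few. With a separation of at least 4 within-level SDs and at least 30 mice in each level, 61 probe sets had 2 levels, 4 of them on chromosome 3. These 4 were Mgst2, both probe sets of 1700034I23Rik, a RIKEN transcript, and Mrps28, a protein of the mitochondrial ribosome. The 1700034I23Rik levels matched those of Lamtor5 in 71.3% and 69.6% of mice. Mrps28, at 98.5 Mb, had 7.04, 8.995 and 9.76 as lowest, median and highest value in high mice and 7.08, 7.85 and 9.48 in low mice, and matched in 60.9%. Its difference of 0.40 (SE 0.15, limma adjusted p = 0.301) was no call. The 57 probe sets on other chromosomes came from 49 genes. Several of them were probe sets of Cwc22 with the same level means, so they are fewer than 57 separate splits. They matched the Lamtor5 levels in 50.4 to 60% of mice, with a median of 51.3% and the highest value for Tex14. That upper value depends on the separation asked for. At 3 within-level SDs, 2213 probe sets on other chromosomes matched in up to 70.4% of mice, above the match of some chromosome 3 calls. On chromosome 3, at the same 3 SDs, the highest match was 75.7% within 5 Mb and 93.9% from 5 to 20 Mb. It was 74.8% from 20 to 50 Mb and 78.3% beyond. Gstm4 and Ovgp1, both within 5 Mb, are not among these, because their separations of 2.997 and 2.94 fell short of 3. They matched in 93.9% and 81.7% of mice, so the lower figure within 5 Mb depends on that cut. The median match fell between 53.9 and 63.5% in these windows and was lower on other chromosomes.

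**Figure D5:**
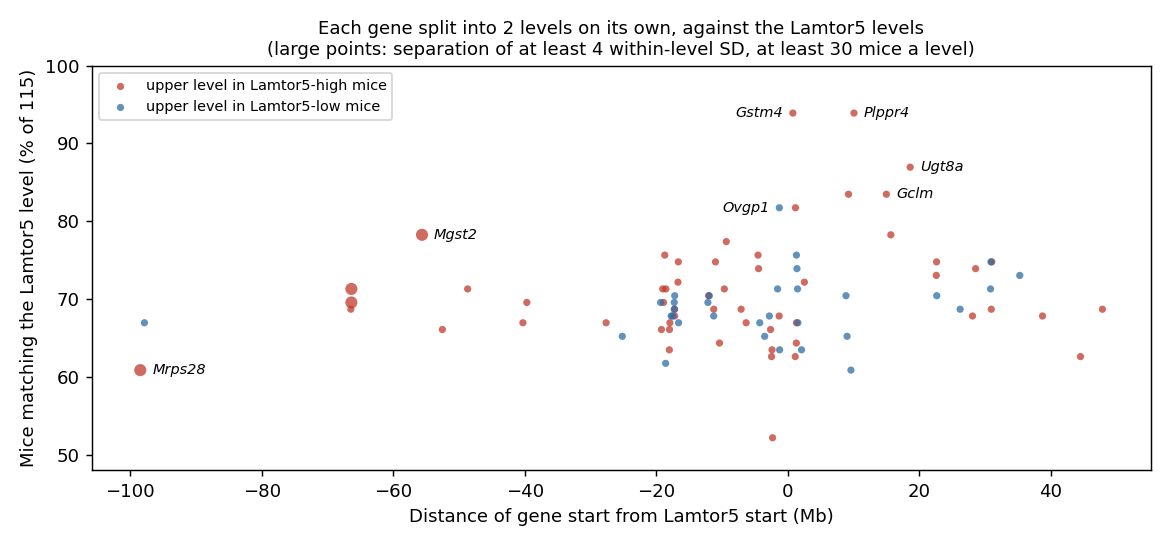
Share of the 115 mice whose own level of a gene matched the Lamtor5 level, for the 88 calls of chromosome 3 and Mrps28, against the distance of the gene start from that of Lamtor5 in Mb. Red points are genes whose upper level went with high Lamtor5 and blue points those whose upper level went with low Lamtor5, by the better match. Wnt2b is drawn red at 52.2% although it was lower in high mice (−0.17), because its own split set 2 mice against 113. Gstm4 and Plppr4 reach 93.9%, and Mgst2 reaches 78.3% at 55.6 Mb.

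Whole fat pads hold many cell types, and in such samples fewer cells of a type and less RNA per cell cannot be told apart. Markers of fat tissue were high, and the mean of 12 white adipocyte genes ran from 10.98 to 12.3 in high mice and from 10.97 to 12.2 in low mice, and luminal epithelial, endothelial and lymphoid genes were also measured. Of the marker genes of white and brown adipocytes, B cells, T cells, macrophages, luminal and basal epithelium, skeletal muscle, endothelium and fibroblasts, and of cell cycle genes, 0 were called, against 0.443% of all probe sets. Most of these genes also lie on other chromosomes, where 0.0696% of probe sets were called. The medians farthest from 0 were −0.20 for 6 T cell genes, −0.17 for 8 luminal epithelial genes, 0.14 for 6 brown adipocyte genes and −0.13 for 7 B cell genes. The mean of the T cell list ran from 5.83 to 8.28 in high mice and from 6.15 to 9.28 in low mice, and that of the luminal list from 6.22 to 10.3 in high mice and from 6.33 to 10.4 in low mice. Cd2, a T cell gene that lies on chromosome 3, had medians of 7.47 in high mice and 7.77 in low mice and differed by −0.23 (SE 0.11, limma adjusted p = 0.458). With the means of 6 of these lists as covariates, 86 of the 88 calls of chromosome 3 and 12 of the 14 on other chromosomes remained, with no sign turned. The same covariates raised the calls over all probe sets to 238, against 125 without them, and those on other chromosomes to 74, against 14.

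Hipk2, the kinase gene in the title of the series, lies on chromosome 6. It averaged 10.74 ± 0.347 (SD, n = 53) in high mice and 10.70 ± 0.350 (SD, n = 62) in low mice, a difference of 0.040 (SE 0.066, 95% interval −0.090 to 0.17, limma adjusted p = 0.851). Its relative Hipk1 lies on chromosome 3, 3.54 Mb from Lamtor5, and was named after its values were seen. Hipk1 had 10.27, 10.63 and 10.86 as lowest, median and highest value in high mice and 10.41, 10.71 and 11.14 in low mice. It differed by −0.11 (SE 0.025, limma adjusted p = 0.0176), a call that was lost, at −0.083, when the arrays were centred on their medians.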

How the data were processed

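The authors deposited log2 values. According to the submitters' processing notes these came from RMA (robust multi-array average) in oligo. Tool versions and the array build are not given in these sources, and no scanner files were used. The table holds 28204 probe sets, of which 21141 had 1 symbol in the platform annotation. Of these, 21111 matched the RefSeq gene table (GRCm38.p6) by gene identifier, which gave names, chromosomes and distances only. Another probe set had equal values on every array for 654. Array pairs correlated at 0.928 to 0.992.

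The levels came from k-means. The fit used limma 3.58.1 in R 4.3.3 (level, plate, lymph cluster; high minus low), leaving out both Lamtor5 probe sets, with no filter on dim probe sets, and was tested on simulated data. For arrays, their number limits the precision. The mixture used mclust 6.1.1.

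The members and lists were chosen with earlier results of these data known. Genes named were Lamtor5, its 5 nearest measured genes on each side, the 10 largest rises and falls among calls on chromosome 3, the 8 largest elsewhere, Ragulator subunits, up to 2 members per list with the smallest p, and two-level genes, leaving out predicted genes, RIKEN genes and receptor segments from the largest. The brightest probe set stood for its gene. Members of cell type lists other than Cd2 and most two-level genes were not named, a narrowing made after values were seen, and 1 of the 8 largest falls elsewhere is not reported here.

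Alternatives changed covariates, arrays used, filter, normalization, weights, moderation, scale and level rule. The labels number no replicates, so numbers were assigned in accession order and pair no mice.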

Additional observations from a re-analysis of the deposited data

How the results depend on the processing

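Against 125 calls over all probe sets, 88 on chromosome 3 and 14 on other chromosomes, plate 1 alone gave 73, 58 and 2 calls, plate 2 alone 9, 6 and 1, lymph cluster 1 alone 8, 7 and 0, cluster 2 alone 48, 39 and 2, and cluster 3 alone 1, 1 and 0, all with fewer mice. Cell content covariates gave 238 calls over all and 74 on other chromosomes, principal components 138 on chromosome 3, and the widest gap 8 on other chromosomes. Levels from the second Lamtor5 probe set, an alternative added after seeing the data, gave 197, 3 and 153. The cause of these changes was not tested. The interaction with plate gave 0 calls, 3 after repeated quantile normalization and 1 with trend and robust moderation. The 4 two-level probe sets of chromosome 3, of 61 in all, became 115 of 2336 at a separation of 3 within-level SDs. Of the 2336, 2213 lay on other chromosomes, and chromosome 3 held 4.72% of the placed probe sets. The other planned settings stayed within 1.5 times these counts.

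Among named genes, signs turned mostly for small differences and in lymph cluster 3, which has 10 mice. There the log2 difference was −0.056 for Kcna10, 0.017 for Kcna2, 0.20 for AI504432, −0.031 for Slc16a4, −0.094 for Kcnc4, 0.092 for Vcam1, 0.083 for Chil5, 0.034 for Tet1, 0.13 for Sesn3, −0.023 for Eif4ebp1, 0.48 for Cd2, 0.052 for Hipk1, −0.00033 for Adh5 and 0.041 for Tet2. In cluster 1 it was 0.018 for Prok1, 0.059 for Cym, 0.0012 for Rbm15, −0.029 for Lamtor3 and 0.010 for Kxd1, and in cluster 2 it was 0.0068 for Prok1. On plate 2 it was 0.15 for Prok1, −0.017 for Slc16a4 and −0.083 for Ubl4b, and on plate 1 it was −0.010 for Lamtor3. Centring the arrays gave 0.012 for Prok1. Lamtor3 was −0.012 with quantile normalization, −0.012 with array weights, −0.032 with cell content and −0.037 with principal components. Hipk2 was −0.028 with cell content. The cause was not tested. Of the named probe sets called on all arrays, 38 kept their sign but lost the call on plate 2, 38 in lymph cluster 1 and 38 in cluster 3. Centring moved the median of all probe sets by 0.024. No paired analysis was possible because the labels give no replicate numbers and the assigned ones only name mice.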
